A study of Mus musculus with 12 samples.

Results

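The lung keeps its air spaces nearly dry by pumping salt out of the fluid that lines them and letting water follow. Sodium enters alveolar epithelial cells from the air side through the epithelial sodium channel, which is built from the subunits Scnn1a, Scnn1b and Scnn1g, and the sodium pump on the other face of the cell, whose beta 1 subunit is Atp1b1, drives it out. Aquaporins are water channels, and Cftr is a chloride channel opened by cyclic AMP. The 9 genes described here (Scnn1a, Scnn1b, Scnn1g, Atp1b1, Aqp1, Aqp3, Aqp4, Aqp5 and Cftr) were chosen by name from the 35599 genes of a mouse lung RNA-seq table, and each was found once.

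Lung RNA was sequenced from 3 groups of mice, with 4 libraries each. ND-RHL mice received bleomycin, which scars the lung, and lipopolysaccharide (LPS), which inflames it, and then liposomes loaded with nintedanib, a kinase inhibitor used against lung fibrosis, and dexamethasone, a glucocorticoid. The surface of these liposomes carried hyaluronic acid and RGD peptides. AE-PF mice received the same 2 agents without liposomes, as a model of acute exacerbation of pulmonary fibrosis, and saline mice were the controls. Strain, genotype, age, sex, dose and timing are not given in the sources used here. Mice given empty liposomes or either drug alone are not analysed here, so the drugs and their carrier cannot be told apart. The labels do not say that the libraries came from separate animals, so the p-values measure the spread between these samples, which may be technical.

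Libraries held 16152379 to 21667129 fragments counted to genes. Values are FPKM, fragments scaled by gene length and library total, which allows levels to be compared between genes. The tissue label was checked against alveolar type 2 markers, all 15 of which were detected, with a summed level of 1909 to 19785 FPKM in the 12 libraries. AE-PF library 2 and ND-RHL library 4 stood apart from the others by markers of stratified squamous epithelium, whose sum was 6190 FPKM in ND-RHL library 4 and 1886 FPKM in AE-PF library 2 but 1.25 to 7.66 FPKM in the other 10. Skeletal muscle markers set the same libraries apart, at 1772 FPKM in ND-RHL library 4 and 780 FPKM in AE-PF library 2, against 138 FPKM or less in the others. Calls that changed without them are given with both values.

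The 9 genes spanned a wide range of levels. In saline lung Aqp1 was the most abundant at 373 ± 29.2 FPKM, followed by Atp1b1 at 97.7 ± 4.64, Aqp5 at 84.8 ± 6.20, Scnn1a at 64.5 ± 5.90, Scnn1g at 43.9 ± 4.42 and Scnn1b at 43.7 ± 4.46 FPKM (SD, n = 4). Aqp3 at 3.31 ± 2.79, Aqp4 at 3.11 ± 0.976 and Cftr at 1.97 ± 0.207 FPKM were the lowest. The ranges of Scnn1g and Scnn1b overlapped, as did those of Aqp3, Aqp4 and Cftr in neighbouring pairs, so their order was not resolved, while each step from Aqp1 down to Scnn1g was separated by non-overlapping ranges. ND-RHL means had the same order. In AE-PF lung Scnn1a, at 74.2 ± 11.0 FPKM, stood above Atp1b1 at 68.6 ± 7.68 and Aqp5 at 63.6 ± 22.1 FPKM, with overlapping ranges among these 3.

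Of the 9 genes, 5 were lower in AE-PF than in saline lung at an adjusted p below 0.05: Cftr, Scnn1b, Atp1b1, Aqp4 and Aqp1. Each adjusted p for a gene is from limma on log2(FPKM + 1), adjusted over the 15164 genes that reached 1 FPKM in 4 or more libraries. In that comparison 56.6% of all genes tested passed, 30.2% as lower and 26.4% as higher, so the share of the 9 genes that changed was near the background. The split of all genes depended on the scaling: with equal FPKM totals 5394 genes were higher and 3146 lower in AE-PF lung, while the 9 genes still gave 0 higher and 5 lower. The same call for being higher was met by 0 of the 9, which was also the count at an unadjusted p under 0.05 and by limma-voom on whole fragments. The AE-PF and saline ranges of the 5 genes did not overlap, as for 54.3% of all genes (29.0% lower and 25.3% higher in AE-PF). Over the 9 genes the median log2 difference was -0.48, against -0.03 for all genes tested. Cftr and Aqp3 reached an FPKM of 1 in 7 libraries and the other members in all 12. For Cftr these were the saline libraries and ND-RHL libraries 1, 2 and 3, and no AE-PF library. Cftr thus passed the filter only through the groups where it was higher.

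Between ND-RHL and AE-PF lung, Atp1b1 and Cftr passed, both as higher, where 41.8% of all genes passed, 24.3% as higher and 17.4% as lower. This split turned with the scaling, to 2347 genes higher and 3889 lower with equal totals and 2789 higher and 3223 lower with quantile normalisation. The ranges of both did not overlap, as for 36.8% of all genes (21.2% higher and 15.6% lower in ND-RHL). The median log2 difference of the 9 genes was 0.39, against 0.06 for all genes. By limma 0 of the 9 were lower, as at an unadjusted p under 0.05 and by limma-voom. Between ND-RHL and saline lung only Aqp1 passed, as lower, where 21.9% of all genes passed, 13.3% as higher and 8.65% as lower; with quantile normalisation 1474 genes were higher and 1912 lower. The ND-RHL and saline ranges of Aqp1 and Scnn1b did not overlap, as for 29.9% of all genes (18.1% higher and 11.8% lower in ND-RHL). There the median was -0.12 against 0.03, and 0 of the 9 genes were higher, as at an unadjusted p under 0.05 and by limma-voom. Each pair of these comparisons shares the 4 libraries of a group, so they are not independent of one another.

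**Figure D1:**
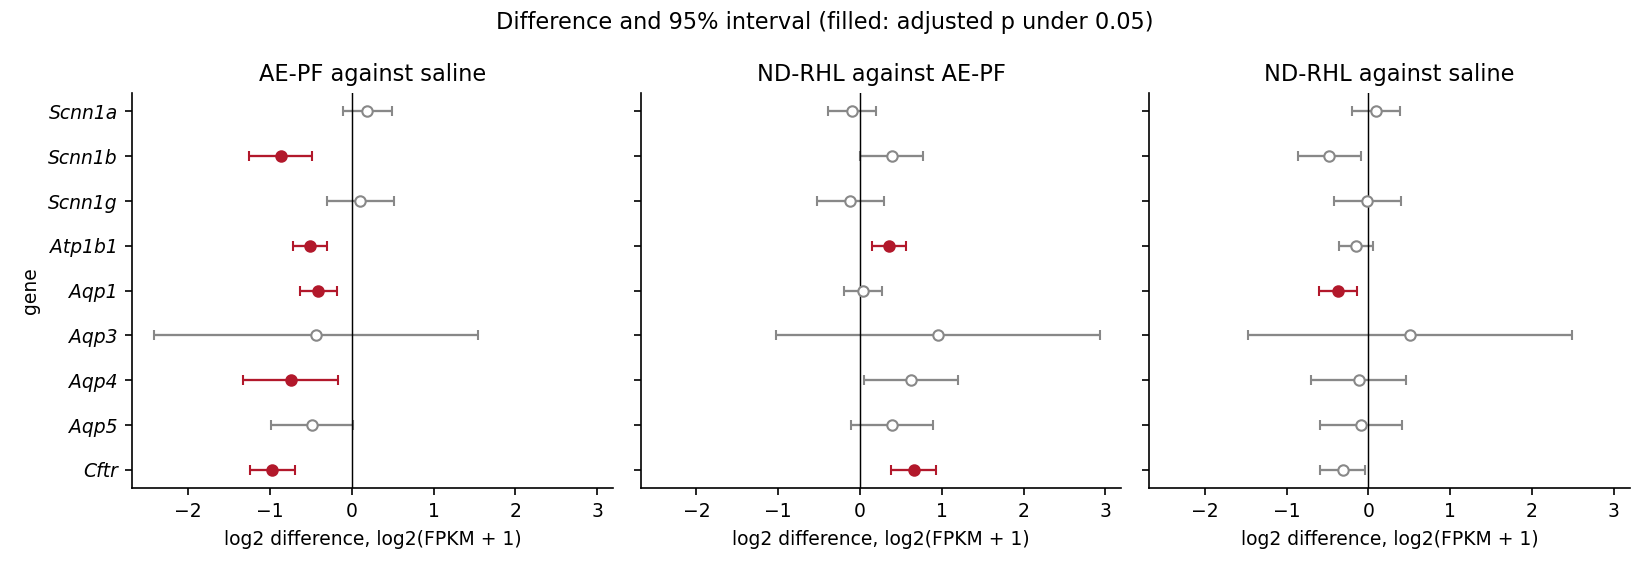
Difference in log2(FPKM + 1) for the 9 genes (x axis), with its 95% interval, in 3 panels for AE-PF against saline, ND-RHL against AE-PF and ND-RHL against saline. Filled points have an adjusted p under 0.05: 5 genes lie to the left of 0 for AE-PF against saline, 2 to the right for ND-RHL against AE-PF and 1 to the left for ND-RHL against saline.

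Of the 3 sodium channel subunits, Scnn1b fell in AE-PF lung, and neither Scnn1a nor Scnn1g passed the test. Scnn1b, the beta subunit, was 24.9, 16.1, 27.4 and 27.4 FPKM in AE-PF libraries 1 to 4, against 40.9, 48.0, 47.0 and 39.0 FPKM in saline libraries 1 to 4. Every AE-PF library lay below every saline library. The AE-PF mean was 54.8% of the saline mean, a log2 difference of -0.87 (SE 0.18, 95% interval -1.25 to -0.48, adjusted p = 0.00151).

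Scnn1a, the alpha subunit, which the channel needs to carry current, was 83.9, 58.4, 76.4 and 78.3 FPKM in AE-PF libraries, against 63.3, 68.1, 69.9 and 56.7 FPKM in saline libraries. The groups overlapped, with AE-PF library 2 below 3 of the 4 saline libraries, and the log2 difference of 0.19 (95% interval -0.10 to 0.49) did not pass (adjusted p = 0.247). Scnn1g, the gamma subunit, was 51.3, 31.8, 53.2 and 56.4 FPKM in AE-PF libraries, against 40.1, 46.7, 48.6 and 40.1 FPKM in saline libraries. AE-PF library 2 was again the exception, the lowest of the 8, and the log2 difference was 0.10 (95% interval -0.31 to 0.51, adjusted p = 0.654). With both libraries that stood apart left out, these subunits passed as higher in AE-PF lung, Scnn1a by 0.30 (adjusted p = 0.0135) and Scnn1g by 0.29 on the log2 scale (adjusted p = 0.0249).

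In bulk tissue, fewer cells of a type and less RNA per cell cannot be told apart. All 15 alveolar type 2 markers fell in AE-PF lung, where their sum was 1909 to 5994 FPKM, against 14965 to 18986 FPKM in saline lung, and their median log2 difference was -1.46. Of 15 type 1 markers, 6 fell and 2 rose, with sums of 1035 to 2374 FPKM in AE-PF and 2140 to 2414 FPKM in saline lung. The part of these marker changes in the values of the 9 genes was not tested.

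Scnn1b in ND-RHL lung lay between the other groups, at 28.4, 35.6, 37.5 and 24.2 FPKM. The first 3 of these libraries exceeded every AE-PF library, ND-RHL library 4 did not, and all 4 were below the saline range. The mean was 31.4 ± 6.23 FPKM in ND-RHL lung and 23.9 ± 5.37 FPKM in AE-PF lung (SD, n = 4 each), and the log2 difference of 0.39 (SE 0.18) did not pass (adjusted p = 0.098). It passed without ND-RHL library 4, at 0.50 (adjusted p = 0.0404), and without both libraries that stood apart, at 0.33 (adjusted p = 0.0405), but was 0.22 without AE-PF library 2 alone (adjusted p = 0.243). Against saline lung the difference was -0.48 (95% interval -0.86 to -0.09, adjusted p = 0.0738). It stayed at -0.48 and passed with only these groups fitted (adjusted p = 0.0392) and without AE-PF library 2, which is in neither group (adjusted p = 0.0204). Without both libraries that stood apart it was -0.36 and passed (adjusted p = 0.0324). Leaving out 1 library at a time gave adjusted p of 0.0204 to 0.174.

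Scnn1a was 69.8, 82.6, 70.1 and 54.5 FPKM in the 4 ND-RHL libraries. These overlapped both other groups, with log2 differences of -0.10 from AE-PF (95% interval -0.40 to 0.20, adjusted p = 0.576) and 0.09 from saline lung (adjusted p = 0.668). Scnn1g was 41.6, 51.3, 50.7 and 32.2 FPKM there. It also overlapped both, with log2 differences of -0.12 from AE-PF (95% interval -0.53 to 0.29, adjusted p = 0.636) and -0.02 from saline lung (adjusted p = 0.962).

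**Figure D2:**
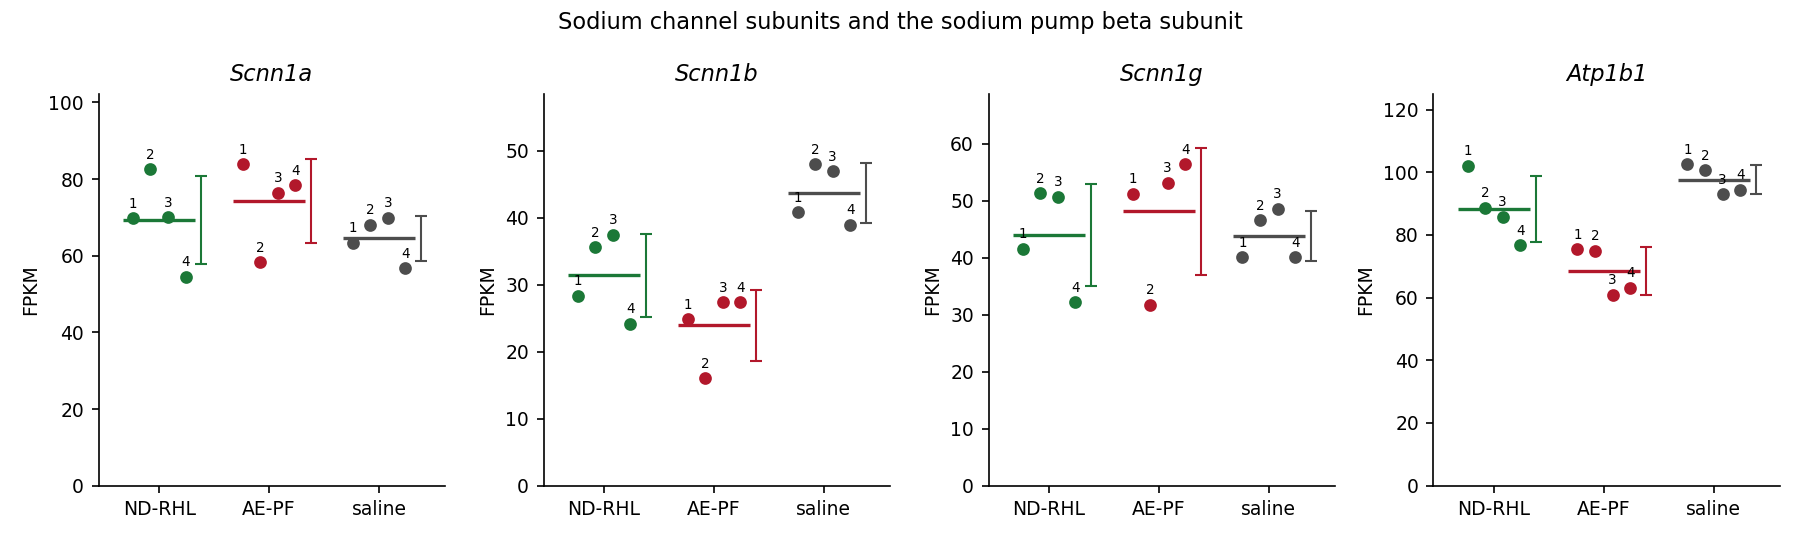
FPKM of Scnn1a, Scnn1b, Scnn1g and Atp1b1 (y axes, from 0) in each library, by group. Dots are libraries with their numbers, lines are group means and bars are SD (n = 4); for Scnn1b and Atp1b1 the AE-PF dots lie below all saline dots, while the groups overlap for Scnn1a and Scnn1g.

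Taking the subunits within one library sets aside what scales all 3 alike. The Scnn1g to Scnn1b ratio of FPKM was 1.47, 1.44, 1.35 and 1.33 in ND-RHL libraries, 2.06, 1.98, 1.94 and 2.06 in AE-PF libraries, and 0.982, 0.972, 1.04 and 1.03 in saline libraries. The 3 groups did not overlap, and within a group the ratios lay close together, including in AE-PF library 2 and ND-RHL library 4. The mean log2 ratio was 0.48 ± 0.07 in ND-RHL, 1.00 ± 0.04 in AE-PF and 0.01 ± 0.05 in saline lung (SD, n = 4). Each of the 3 differences had an exact 2-sided permutation p of 0.0286, the smallest that 4 against 4 libraries allow, and an adjusted p of 0.0735 over the 18 ratio tests made.

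The Scnn1b to Scnn1a ratio separated the groups in the same manner. It was 0.406, 0.431, 0.535 and 0.444 in ND-RHL libraries, 0.297, 0.275, 0.358 and 0.350 in AE-PF libraries, and 0.645, 0.705, 0.672 and 0.688 in saline libraries. No ranges overlapped, and each exact permutation p was again 0.0286 (adjusted p = 0.0735). The Scnn1g to Scnn1a ratio, in contrast, overlapped in every pair of groups, with a log2 difference of -0.09 between AE-PF and saline lung (exact permutation p = 0.4286). As a share of the summed FPKM of the 3 subunits, Scnn1b made up 21.7% ± 1.47 in ND-RHL, 16.3% ± 1.09 in AE-PF and 28.7% ± 0.544 in saline lung (SD, n = 4).

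**Figure D3:**
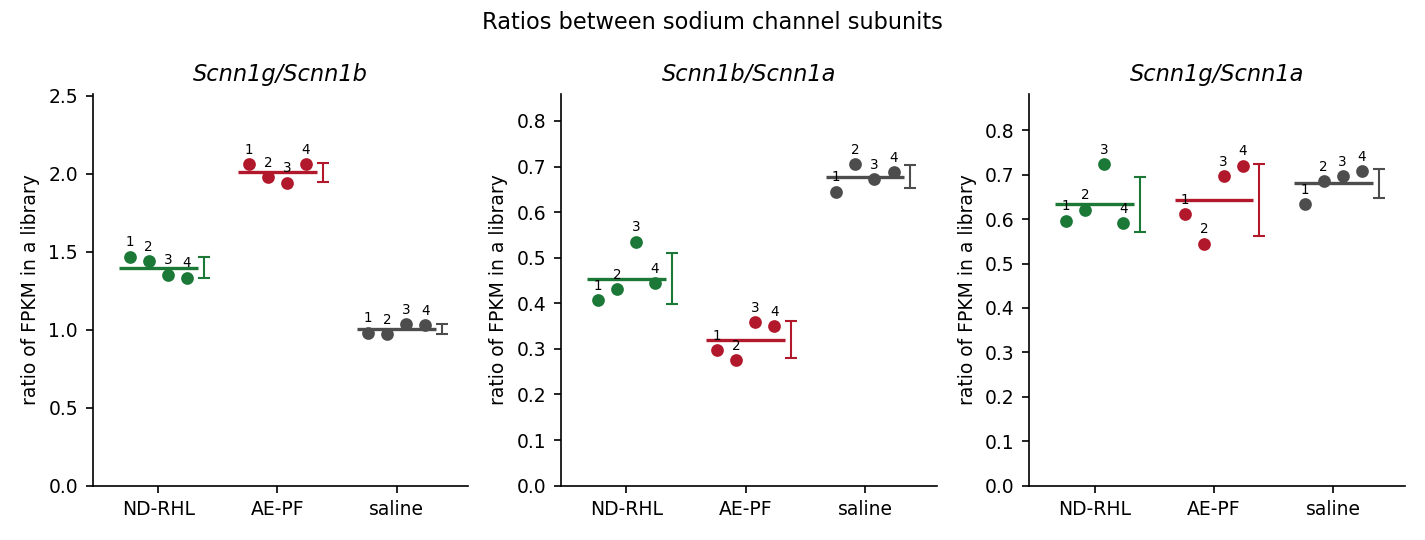
FPKM ratios within each library (y axes, from 0) for pairs of sodium channel subunits, by group, with library numbers, group means and SD (n = 4). Scnn1g to Scnn1b stands at 1.33 to 1.47 in ND-RHL, at 1.94 to 2.06 in AE-PF and at 0.972 to 1.04 in saline libraries, whereas Scnn1g to Scnn1a overlaps in all 3 groups.

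Scnn1g and Scnn1b are neighbours on the same strand of chromosome 7, at chr7:121734479-121768475 and chr7:121865038-121918514 (GRCm38, GENCODE M21), 96562 bases apart, while Scnn1a lies at chr6:125320659-125344943. Since the neighbours differed in these data, their promoters are shown, from RefSeq on GRCm38.p6, 250 bases before to 50 after the start, on the plus strand. Capitals mark GGGCGG, a GC box, or CAAGTG, a motif of the lung factor Nkx2-1, read on either strand.
Scnn1b, chr7:121864788-121865087: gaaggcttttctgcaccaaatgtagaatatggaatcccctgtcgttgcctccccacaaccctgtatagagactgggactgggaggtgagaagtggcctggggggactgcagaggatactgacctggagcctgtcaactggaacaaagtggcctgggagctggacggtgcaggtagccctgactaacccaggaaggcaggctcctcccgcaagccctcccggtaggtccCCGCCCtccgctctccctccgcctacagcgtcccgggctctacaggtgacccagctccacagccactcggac
Scnn1g, chr7:121734229-121734528: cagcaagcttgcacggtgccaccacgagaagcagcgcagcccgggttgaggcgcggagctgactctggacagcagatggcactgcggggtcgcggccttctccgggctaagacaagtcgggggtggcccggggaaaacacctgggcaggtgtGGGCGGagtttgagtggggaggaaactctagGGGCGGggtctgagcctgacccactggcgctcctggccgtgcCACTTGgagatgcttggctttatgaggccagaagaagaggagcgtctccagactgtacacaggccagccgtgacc
The Scnn1b promoter held 1 GC box and the Scnn1g promoter 2, a motif found in 35.7% of 32851 promoters of this length. CAAGTG was in the Scnn1g window alone among the 7 members with a promoter in the table (13.6% of all promoters). The motifs AGAACA (glucocorticoid receptor core, 19.0% of promoters), TGTTTAC (forkhead, 3.65%) and TGACTCA (AP-1, 5.2%) were searched on both strands and matched in none of these 7 windows. Scnn1b overlaps Cog7 on the opposite strand, whose level was 5.22 to 7.31 FPKM, and without a stated strand setting reads of overlapping genes cannot be told apart.

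Atp1b1, the subunit that carries the sodium pump to the cell surface, lies on the minus strand at chr1:164437109-164458355. It was 102, 88.8, 85.8 and 76.8 FPKM in ND-RHL libraries, 75.4, 75.0, 60.9 and 63.2 FPKM in AE-PF libraries, and 103, 101, 93.0 and 94.5 FPKM in saline libraries. The AE-PF libraries lay below all of the other 8, and the ND-RHL and saline ranges overlapped. In AE-PF lung the mean was 70.3% of that in saline lung, a log2 difference of -0.51 (SE 0.09, adjusted p = 0.000884). ND-RHL exceeded AE-PF lung 1.29-fold, by 0.36 on the log2 scale (SE 0.09, adjusted p = 0.0112), and differed from saline lung by -0.15 (adjusted p = 0.285). Equal FPKM totals for all libraries shifted the median log2 difference of all genes between ND-RHL and AE-PF lung to -0.04, against 0.06 as deposited. With them the Atp1b1 difference of ND-RHL from AE-PF lung was 0.25 and did not pass (adjusted p = 0.0617). Nme7 overlaps Atp1b1 on the opposite strand, at 1.68 to 2.58 FPKM.

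Aqp1 is the water channel of capillary endothelium and red blood cells, at chr6:55336432-55348555 on the plus strand. Among the 9 genes only Aqp1 passed as lower than saline in both challenged groups. Its level was 262, 315, 316 and 262 FPKM in ND-RHL libraries, 246, 264, 299 and 318 FPKM in AE-PF libraries, and 345, 357, 411 and 379.8 FPKM in saline libraries. Every challenged library lay below every saline library, and ND-RHL and AE-PF overlapped. The log2 difference was -0.41 between AE-PF and saline lung (SE 0.10, 75.5% of the saline mean, adjusted p = 0.00614) and -0.37 between ND-RHL and saline lung (SE 0.10, 77.4%, adjusted p = 0.0272).

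ND-RHL and AE-PF lung differed in Aqp1 by 0.04 on the log2 scale (95% interval -0.19 to 0.26, adjusted p = 0.803), a direction that turned with equal FPKM totals, at -0.078. The difference between ND-RHL and saline lung no longer passed when low genes were kept (adjusted p = 0.0836), without both libraries that stood apart (adjusted p = 0.0558), or without saline library 2, 3 or 4 or ND-RHL library 1 or 4 (adjusted p up to 0.0728). Of 16 endothelial markers, 10 fell and 1 rose in AE-PF against saline lung, 9 rose and 1 fell in ND-RHL against AE-PF lung, and 2 fell in ND-RHL against saline lung. Their sum was 1283 to 1791 FPKM in ND-RHL, 839 to 1177 FPKM in AE-PF and 1626 to 1886 FPKM in saline lung. Red blood cell markers summed to 799 to 1733 FPKM in ND-RHL, 287 to 868 FPKM in AE-PF and 514 to 1508 FPKM in saline lung. The part of these cell types in the Aqp1 difference was not tested.

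Aqp5, the water channel on the air-facing membrane of type 1 cells, lies at chr15:99590782-99594829 on the plus strand. It was 75.8, 97.9, 82.8 and 64.8 FPKM in ND-RHL libraries, 57.1, 35.4, 83.6 and 78.4 FPKM in AE-PF libraries, and 77.3, 84.9, 92.5 and 84.7 FPKM in saline libraries. AE-PF libraries 3 and 4 were within the saline range and libraries 1 and 2 below it. The log2 difference of AE-PF from saline lung was -0.48 (95% interval -0.98 to 0.02) and did not pass (adjusted p = 0.0925). It depended on which libraries entered: it passed without AE-PF library 3, at -0.64 (adjusted p = 0.0339), and with quantile normalisation, at -0.61 (adjusted p = 0.0393). Without AE-PF library 2 it was -0.23 (adjusted p = 0.223), also -0.23 without both libraries that stood apart (adjusted p = 0.168), and with array weights -0.14 (adjusted p = 0.392). ND-RHL differed from AE-PF by 0.39 (95% interval -0.11 to 0.89, adjusted p = 0.19) and from saline lung by -0.09 (adjusted p = 0.805). Without AE-PF library 2 the difference of ND-RHL from AE-PF was 0.14 (adjusted p = 0.502), and without both libraries that stood apart 0.23 (adjusted p = 0.219). Within a library, the log2 ratio of Aqp1 to Aqp5 was lower in ND-RHL than in saline lung by a difference of -0.28, with no overlap (exact permutation p = 0.0286, adjusted p = 0.0735 over the 18 ratio tests), and overlapped in the other comparisons. The type 1 marker sum was also lowest in AE-PF library 2, at 1035 FPKM, and next lowest in AE-PF library 1, at 1751 FPKM.

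**Figure D4:**
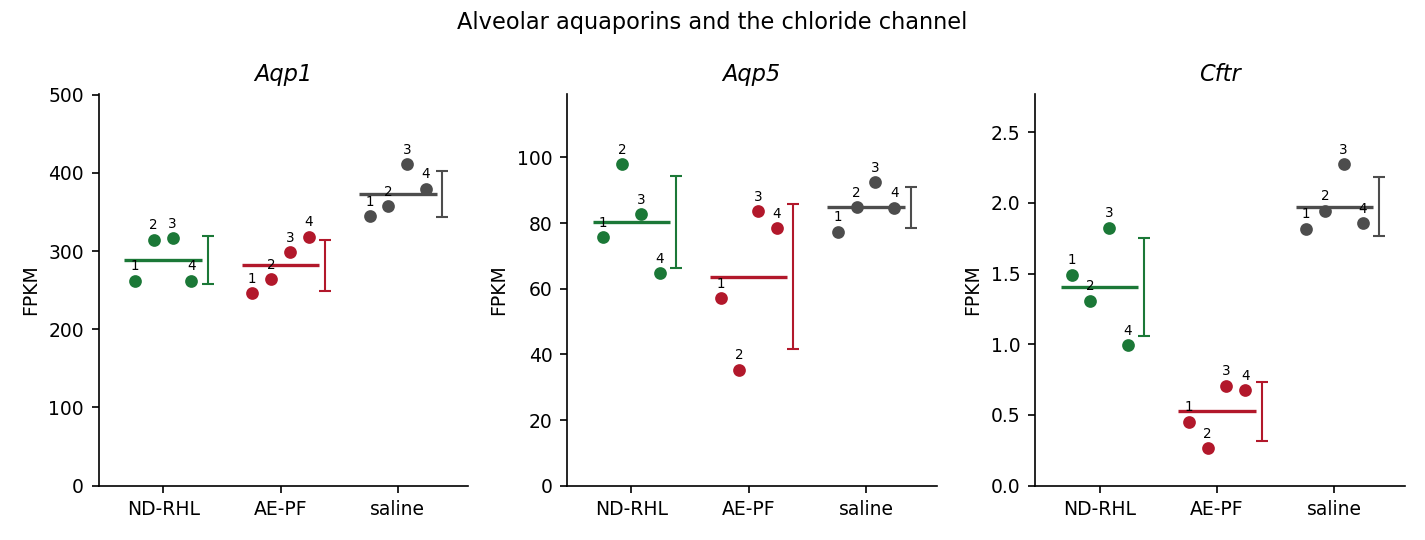
FPKM of Aqp1, Aqp5 and Cftr (y axes, from 0) in each library, by group, with library numbers, means as lines and SD as bars (n = 4). For Aqp1 all ND-RHL and AE-PF dots lie below the saline dots; for Cftr the AE-PF dots, at 0.264 to 0.708 FPKM, lie below all others; for Aqp5 the groups overlap.

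Cftr, at chr6:18170687-18322768 on the plus strand, had the lowest mean of the 9 genes in each group and, among the 5 that fell in AE-PF lung, the largest ratio between group means. It was 1.49, 1.31, 1.83 and 0.992 FPKM in ND-RHL libraries, 0.454, 0.264, 0.708 and 0.676 FPKM in AE-PF libraries, and 1.82, 1.95, 2.27 and 1.86 FPKM in saline libraries. AE-PF lay below all other libraries, and of the ND-RHL libraries only library 3 reached the saline range. These levels rest on 134 to 275 fragments in ND-RHL, 37 to 95 in AE-PF and 236 to 356 in saline libraries. The AE-PF mean was 26.6% of the saline mean, 3.76-fold lower, with a difference of -0.97 in log2(FPKM + 1), a scale that shrinks the differences of genes this low (SE 0.13, adjusted p = 7.24e-05); with 0.1 in place of 1 added to the FPKM it was -1.79 (adjusted p = 0.000157).

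ND-RHL exceeded AE-PF lung in Cftr 2.67-fold, by 0.66 on the log2(FPKM + 1) scale (SE 0.13, adjusted p = 0.00200), or by 1.31 with 0.1 added (adjusted p = 0.00248). It stood at 71.1% of the saline mean, a log2 difference of -0.32 that did not pass (95% interval -0.59 to -0.04, adjusted p = 0.0935) but passed with quantile normalisation, at -0.40 (adjusted p = 0.039), and without ND-RHL library 3 (adjusted p = 0.0467). The promoter is shown because it held the most GC boxes of the 7 examined, 6 matches in capitals, of which 3 overlap, on the plus strand of GRCm38.p6.
Cftr, chr6:18170437-18170736: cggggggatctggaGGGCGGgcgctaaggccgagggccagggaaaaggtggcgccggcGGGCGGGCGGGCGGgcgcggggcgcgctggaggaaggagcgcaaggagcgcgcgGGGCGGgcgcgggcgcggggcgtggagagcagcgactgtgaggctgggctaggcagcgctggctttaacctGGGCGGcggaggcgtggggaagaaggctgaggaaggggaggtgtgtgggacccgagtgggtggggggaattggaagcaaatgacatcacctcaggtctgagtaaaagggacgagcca
Its GC content was 71.3%, against a median of 52.7% over all promoters in the table. This was not particular to Cftr: Aqp5 stood at 79.7% and Atp1b1 at 71.0%, and the lowest of the 7 was Scnn1b, at 61.7%. Each of the 7 windows held at least 1 GC box. Airway epithelium holds Cftr-rich cells, among them ionocytes and secretory cells. Of 6 ionocyte markers, 4 were tested: 2 rose and 1 fell in AE-PF against saline, 1 rose and 1 fell in ND-RHL against AE-PF, and 2 rose and 1 fell in ND-RHL against saline lung. Their sum was 20.7 to 38.9 FPKM in ND-RHL, 23.5 to 46.7 FPKM in AE-PF and 15.7 to 19.1 FPKM in saline lung. Foxi1, the defining factor, was below 0.1 FPKM in every library. Most of the sum was Atp6v0d2, at 39.1 of 44.3 FPKM in AE-PF library 1 and 11.3 of 16.5 FPKM in saline library 1. Atp6v1b1, the marker that fell in AE-PF lung, was 0.141 to 1.39 FPKM in ND-RHL, 0.0402 to 0.101 FPKM in AE-PF and 1.47 to 2.49 FPKM in saline lung. All 10 club and secretory cell markers fell in AE-PF against saline lung and 8 rose in ND-RHL against AE-PF lung. Their sums were 10975 to 24664 FPKM in ND-RHL, 5153 to 6597 FPKM in AE-PF and 30357 to 41885 FPKM in saline lung. Such a fall and rise was not particular to secretory cells. All 15 alveolar type 2 markers fell in AE-PF against saline and rose in ND-RHL against AE-PF lung, as did all 10 ciliated cell markers. The part of these cell types in the Cftr values was not tested.

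Aqp3, which also carries glycerol and is found on airway basal cells, spread widely within each group. It lies on the minus strand at chr4:41092722-41098183 and was 10.2, 0.372, 0.930 and 22.3 FPKM in ND-RHL libraries, 0.546, 6.96, 1.16 and 0.876 FPKM in AE-PF libraries, and 6.59, 1.33, 0.678 and 4.65 FPKM in saline libraries. All groups overlapped, and no difference passed, with log2 differences of -0.44 for AE-PF from saline (95% interval -2.42 to 1.54, adjusted p = 0.699), 0.95 for ND-RHL from AE-PF (-1.03 to 2.93, adjusted p = 0.424) and 0.51 for ND-RHL from saline lung (adjusted p = 0.722). The 5 libraries highest in Aqp3 (ND-RHL 1 and 4, AE-PF 2, saline 1 and 4), at 4.65 FPKM or more, were the 5 highest in the sum of 8 airway basal cell markers. That sum was 30.3 FPKM or more in these 5 and 3.89 FPKM or less in the other 7. Most of the 63.8 FPKM in AE-PF library 2 was Krt5, Krt14 and Krt15, at 23.8, 16.9 and 15.6 FPKM. Trp63, Dapl1 and Krt17 were also the highest of the AE-PF group there, at 1.35, 5.22 and 0.285 FPKM. Ngfr and Bcl11b were the lowest of that group there, at 0.337 and 0.44 FPKM, so the 8 markers did not all move together. The part of basal or squamous epithelium in the Aqp3 values was not tested.

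Aqp4, the water channel of the basal membrane of airway epithelium and of muscle fibres, lies on the minus strand of chromosome 18 and overlaps an annotated antisense transcript. It was 5.09, 1.37, 1.94 and 3.41 FPKM in ND-RHL libraries, 1.37, 1.41, 1.13 and 1.73 FPKM in AE-PF libraries, and 4.41, 3.04, 2.05 and 2.92 FPKM in saline libraries. All AE-PF libraries lay below the saline libraries, and ND-RHL overlapped both groups. The mean was 45.3% of the saline mean in AE-PF lung, a log2 difference of -0.75 (95% interval -1.32 to -0.17, adjusted p = 0.0307). It no longer passed when low genes were kept (adjusted p = 0.0656), without both libraries that stood apart (adjusted p = 0.056), or without saline library 1, 2 or 4 or AE-PF library 1, 2 or 3 (adjusted p up to 0.0893). ND-RHL exceeded AE-PF lung by 0.62 (95% interval 0.05 to 1.20), which did not pass (adjusted p = 0.0777) but did without ND-RHL library 2, at 0.84 (adjusted p = 0.0198); without ND-RHL library 1 it was 0.38 (adjusted p = 0.2003).

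The 5 libraries highest in Aqp4 (ND-RHL 1 and 4, saline 1, 2 and 4), at 2.92 FPKM or more, were the 5 highest in the sum of 7 adipocyte markers, at 187 FPKM or more, against 129 FPKM or less in the other 7. All 6 adipocyte markers tested fell in AE-PF against saline lung. The sums were 24.2 to 923 FPKM in ND-RHL, 5.17 to 33.1 FPKM in AE-PF and 129 to 700.3 FPKM in saline lung. Cardiac muscle markers moved likewise, at 145 to 742 FPKM in ND-RHL, 31.5 to 61.0 FPKM in AE-PF and 347 to 613 FPKM in saline lung. The same 5 libraries were also the 5 highest in this cardiac sum, at 362 FPKM or more, against 347 FPKM or less in the other 7. Skeletal muscle markers summed to 1772 FPKM in ND-RHL library 4, where Aqp4 was 3.41 FPKM, and to 780 FPKM in AE-PF library 2, where Aqp4 was 1.41 FPKM. They summed to 8.70 to 18.3 FPKM in saline libraries 1, 2 and 4, where Aqp4 was 2.92 FPKM or more. The part of adipose, cardiac and skeletal muscle tissue in the Aqp4 values was not tested.

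**Figure D5:**
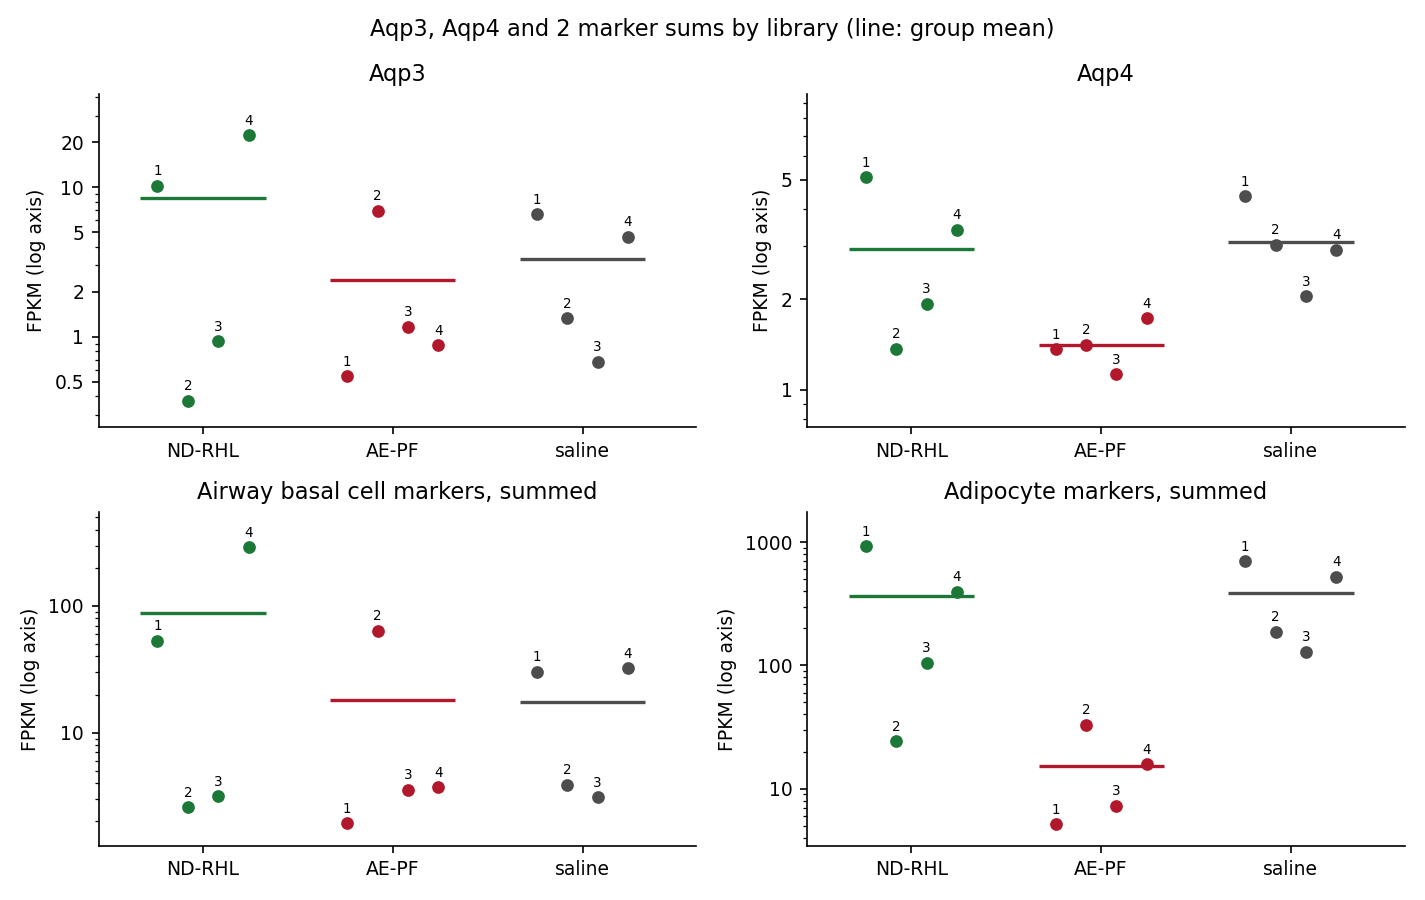
Aqp3 and Aqp4 (upper panels) and the summed FPKM of airway basal cell and adipocyte markers (lower panels) in each library, by group, on log axes, with library numbers and group means as lines. The libraries with the highest Aqp3 have the highest basal cell sums, and those with the highest Aqp4 have the highest adipocyte sums.

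The genes around these channels were described from a list of 42 partners and regulators, of which 41 were tested. In AE-PF against saline lung 9 rose (22%, against 26.4% of all genes) and 16 fell (39.0%, against 30.2%), with a median log2 difference of 0.03 against -0.03 for all genes. With equal FPKM totals 13 rose and 12 fell. Prss8, a protease that cleaves and opens the sodium channel, fell to 11.2 ± 3.93 FPKM in AE-PF lung, against 27.1 ± 2.62 FPKM in saline lung (SD, n = 4 each; log2 difference -1.26, adjusted p = 0.000461). Adrb1, the beta 1 adrenergic receptor, which raises cyclic AMP, fell to 7.77 ± 2.51 FPKM against 19.3 ± 1.71 FPKM (-1.25, adjusted p = 0.000295). Slc26a9, an anion channel of airway epithelium, fell to 5.70 ± 1.53 FPKM against 13.8 ± 1.97 FPKM (-1.17, adjusted p = 0.000237). Their AE-PF and saline libraries did not overlap.

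Among genes that rose, Fxyd5, which modulates the sodium pump, reached 36.5 ± 2.47 FPKM in AE-PF lung, against 15.7 ± 2.57 FPKM in saline lung (log2 difference 1.18, adjusted p = 5.29e-06). Sgk1, a kinase that keeps the sodium channel at the cell surface, reached 67.5 ± 19.2 FPKM against 32.3 ± 2.19 FPKM (1.00, adjusted p = 0.000383). The protease Prss22 reached 2.40 ± 1.55 FPKM against 0.333 ± 0.300 FPKM (1.26, adjusted p = 0.00579). It was at 1 FPKM or more only in AE-PF libraries 1, 2 and 4 (2.97, 4.31 and 1.46 FPKM) and ND-RHL library 4 (1.04 FPKM). Prss22 thus passed the filter mostly through the group where it was high, so its test is not independent of that filter. Monocyte and macrophage markers moved alongside: all 10 rose in AE-PF against saline lung (median log2 difference 2.07), 8 fell and 1 rose in ND-RHL against AE-PF lung, and 9 rose in ND-RHL against saline lung. They summed to 229 to 452 FPKM in ND-RHL, 884 to 1073 FPKM in AE-PF and 149 to 175 FPKM in saline lung, and their part in these values was not tested.

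In ND-RHL against AE-PF lung 13 of the 41 rose (31.7%, against 24.3% of all genes) and 8 fell (19.5%, against 17.4%), with a median of 0.04 against 0.06 for all genes. With equal totals 12 rose and 12 fell, and with quantile normalisation 13 and 12. Among the largest rises were genes that had fallen in AE-PF lung: Adrb1 at 17.8 ± 3.26 FPKM in ND-RHL lung (log2 difference 1.13, adjusted p = 0.00124), Prss8 at 24.4 ± 4.76 FPKM (1.098, adjusted p = 0.0022) and Slc26a9 at 12.2 ± 2.53 FPKM (0.98, adjusted p = 0.00155). The largest falls were in Prss22, at 0.480 ± 0.427 FPKM (-1.12, adjusted p = 0.0159), Sgk1, at 35.6 ± 3.82 FPKM (-0.87, adjusted p = 0.00193), Fxyd5, at 20.04 ± 1.48 FPKM (-0.84, adjusted p = 0.000131), and Furin. Furin, a protease that processes the sodium channel, was 15.1 ± 1.23 FPKM in ND-RHL lung and 27.3 ± 2.75 FPKM in AE-PF lung (-0.81, adjusted p = 3.47e-05). For Prss22 the ND-RHL and AE-PF ranges overlapped, with ND-RHL library 4 at 1.04 FPKM and AE-PF library 3 at 0.848 FPKM. The AE-PF libraries enter both of these comparisons.

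In ND-RHL against saline lung 2 of the 41 rose (4.88%, against 13.3% of all genes) and 1 fell (2.44%, against 8.65%); with equal totals 2 rose and 0 fell, and with quantile normalisation 2 rose and 3 fell. Tmprss4, a serine protease, was 5.80 ± 0.758 FPKM in ND-RHL lung, against 4.29 ± 0.300 FPKM in saline lung (log2 difference 0.36, adjusted p = 0.0196), and Fxyd5 rose by 0.34 (adjusted p = 0.0318). Oxsr1, a kinase acting on chloride cotransporters, fell to 14.1 ± 0.470 FPKM in ND-RHL lung, against 16.1 ± 0.455 FPKM in saline lung (-0.17, adjusted p = 0.0233). Nr3c2, the mineralocorticoid receptor, chosen after its values were seen, averaged 1.25 FPKM in AE-PF and 3.50 FPKM in saline lung (-1.001, adjusted p = 4.43e-06). In ND-RHL lung it averaged 3.06 FPKM, which was 0.85 above AE-PF lung on the log2 scale (adjusted p = 4.26e-05). Its difference from saline lung of -0.15 did not pass (adjusted p = 0.205).

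For each of the 9 genes the genes with the most similar profile were sought over the 12 libraries, by the root mean square difference of log2(FPKM + 1) after each gene's mean was taken off, among 13536 genes. Cftr was nearest to Crip2 (0.07, with a spread of 0.43 for Cftr itself) and Pde7b (0.08). This scale shrinks the differences of genes as low as Cftr, and the ratios of mean FPKM were less alike. The AE-PF mean was 51.4% of the saline mean for Crip2, 39.2% for Pde7b and 26.6% for Cftr. Scnn1b was nearest to Lipg, an endothelial lipase (0.08, own spread 0.43), and Scnn1g to the integrin subunit Itga3 (0.09, own spread 0.26). Atp1b1 was nearest to Cdh13 (0.07, own spread 0.25), Aqp1 to the chloride channel protein Clic4 (0.08, own spread 0.22), and Aqp5 to Prr5l (0.09, own spread 0.37). Scnn1a was nearest to Slc44a2 (0.09, own spread 0.20) and Aqp4 to Acaca, an enzyme of fatty acid synthesis (0.14, own spread 0.48). Aqp3 had no close match: its nearest gene, Dsc2, a desmosomal cadherin, stood 0.58 away, with an own spread of 1.29.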

How the data were processed

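Per the labels' protocols, polyadenylated lung RNA was made into libraries with the NEBNext Ultra kit and sequenced on a DNBSEQ-G400. The authors deposited 1 table of FPKM values for 35599 genes in 12 separate libraries. Tools named in the submitters' processing notes are STAR 2.7.9a, Trim Galore 0.6.6, FastQC, DESeq2 1.30.1, featureCounts and Subread 2.0.1, with GRCm38 and mm10 as builds. The handling of reads matching several genes and the strand setting are not stated there. Groups and replicate numbers came from the sample titles. Gene positions are from GENCODE M21 (GRCm38), matched by identifier, and promoters from RefSeq.

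Whole fragments were worked out from the deposited FPKM, as a gene length that gave whole numbers within 1e-05 in all libraries was found for 35599 genes. The depth was 16152379 to 21667129 fragments per library, and low members are limited by counting: the fewest fragments behind a member's value were 11, for Aqp3 in ND-RHL library 2. The 15164 genes that reached 1 FPKM in 4 or more libraries were tested on log2(FPKM + 1) by limma 3.58.1 (R 4.3.3) with all 12 libraries in 1 fit and a trended variance. Tests were 2-sided, and a Benjamini-Hochberg adjusted p under 0.05 counted as passing. Deviations from the group means correlated above 0.1 for all 4 same-numbered ND-RHL and saline pairs (0.114 to 0.397). Differently numbered pairs of these groups ranged from -0.42 to 0.316, so correlations above 0.1 were not limited to same numbers. The numbers come from the titles, which state no pairing, and neither the main fit nor the permutation tests used one. For 6 ratios of members within a library, log2 ratios of FPKM + 0.1 were compared by exact 2-sided permutation tests, adjusted over 18 tests. Alternatives were another filter, pseudocount or scaling, array weights, limma-voom, 2 groups only, a replicate block, and libraries left out. Of the list of partners, the up to 4 that rose most and the up to 4 that fell most among those that passed were named per comparison, and the 2 genes nearest in profile were found for each member. Some genes of that list enter its counts and are not reported here by name. The members, lists and motifs were chosen with earlier results of these data known.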

Additional observations from a re-analysis of the deposited data

Results flagged for a closer look

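In 3 of 45 sets of 4 libraries (9 genes and 6 ratios in 3 groups) 1 library stood apart from the other 3 by a gap larger than Dixon's criterion allows at 4 samples; chance gives about 1 in 20. Aqp3 in AE-PF lung was highest in library 2, at 6.96 FPKM, with the next library at 1.16 FPKM. The Aqp3 to Aqp5 ratio was highest in the same library, at 0.197, with the next at 0.0139. This library also had the highest squamous epithelium marker sum of its group, at 1886 FPKM. The Aqp1 to Aqp5 ratio in saline lung was lowest in library 2, at 4.21, with the next at 4.44.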

How the results depend on the processing

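The falls of Scnn1b, Atp1b1, Aqp1 and Cftr in AE-PF against saline lung passed under every alternative in which they were tested, as did the rise of Cftr in ND-RHL against AE-PF lung; with an FPKM minimum of 5, Cftr and Aqp4 were not tested. No alternative without filtered members was possible, since all 9 passed the filter. Limma-voom on recovered fragments called 8602, 6318 and 3330 genes in AE-PF against saline, ND-RHL against AE-PF and ND-RHL against saline lung. The depth limits Cftr, Aqp3 and Aqp4 most, and the cause of the changes below was not tested.

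With an FPKM minimum of 5, which tests fewer genes, 5710 genes and 3 of the 9 members passed in AE-PF against saline lung, and 1 member in ND-RHL against AE-PF lung, as with equal FPKM totals (1). In ND-RHL against saline lung, members past the threshold numbered 0 with no filter, 2 with quantile normalisation, 2 with array weights, 2 with only these groups fitted, and 0 to 2 when a library was left out (0 without saline 2, 3 or 4 or ND-RHL 1 or 4, and 2 without AE-PF 2 or ND-RHL 3). There the genes called ranged from 2008 to 3953 when a library was left out, lowest without saline 2 and next without saline 1, at 2083. Partners and regulators numbered 5 with quantile normalisation, 5 with array weights, 6 without both libraries that stood apart, and 1 to 4 when a library was left out (1 without saline 1, 2 or 4 or ND-RHL 2). Array weights also carried Scnn1a (0.25, adjusted p = 0.0203) and Scnn1g (0.30, adjusted p = 0.0353) past the threshold in AE-PF against saline lung, and Scnn1b in ND-RHL against saline lung (-0.41, adjusted p = 0.028).

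Directions turned for differences that had not passed. In ND-RHL against AE-PF lung, Aqp1 was -0.078 with equal totals, -0.035 with array weights and -0.026 to 0.097 when a library was left out; Scnn1a ranged from -0.21 to 0.0071 and Scnn1g from -0.30 to 0.0185, both turning without ND-RHL 4. In ND-RHL against saline lung, Scnn1g was 0.0041 with equal totals, 0.081 with array weights, 0.12 without both libraries and -0.096 to 0.12 leaving out 1. Aqp3 was -0.094 with array weights, -0.22 without both and -0.22 to 1.15 leaving out 1. Aqp5 was 0.0055 without both and -0.19 to 0.0055 leaving out 1, and Aqp4 -0.36 to 0.093.

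For log2 ratios, Aqp1 to Aqp5 in AE-PF against saline lung was -0.15 without both libraries and -0.15 to 0.21 leaving out 1. Aqp3 to Aqp5 was 0.045 with 1 added to both FPKM and -1.16 to 0.36 leaving out 1 in that comparison. It was -0.34 to 1.71 leaving out 1 in ND-RHL against AE-PF lung, and -0.51 without both and -0.51 to 1.54 leaving out 1 in ND-RHL against saline lung. Aqp4 to Aqp5 was -0.43 to 0.30 in ND-RHL against saline lung and Scnn1g to Scnn1a -0.096 to 0.038 in ND-RHL against AE-PF lung.

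Same-numbered pairs correlated at -0.181 to 0.065 for AE-PF and saline and at -0.387 to 0.339 for ND-RHL and AE-PF libraries. The titles state no pairing for any of the groups. A replicate block was put over all 3 groups. With it 8471 genes passed in AE-PF against saline, 6061 in ND-RHL against AE-PF and 2916 in ND-RHL against saline lung. Of the 9 members 5, 3 and 1 passed. Aqp4 in ND-RHL against AE-PF lung passed, at 0.62 (adjusted p = 0.0394), and no other member's call changed, including those in ND-RHL against saline lung.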

Other observations

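The remaining aquaporins were low in whole lung. Of 8 others in the list, Aqp6, Aqp8 and Aqp12 were below 0.1 FPKM in every library, and Aqp7, a glycerol channel of adipocytes, was the only one that passed the filter. Aqp7 was 2.82, 0.0876, 0.219 and 2.46 FPKM in ND-RHL libraries, 0.0208, 0.0978, 0.0209 and 0.0586 FPKM in AE-PF libraries, and 1.84, 0.267, 0.228 and 1.69 FPKM in saline libraries. No comparison of it passed, with log2 differences of -0.82 for AE-PF from saline, 0.96 for ND-RHL from AE-PF and 0.14 for ND-RHL from saline lung. The ND-RHL and saline groups each held a pair of libraries at 1.69 FPKM or more and a pair at 0.267 FPKM or less, and all 4 AE-PF libraries were at 0.0978 FPKM or less.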
